A study of Mus musculus with 6 samples.

Results

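The calcium/calmodulin-dependent kinase family was examined in the hippocampus of P14 mice through 10 genes of the 24935 in the deposited table, found there by gene name. They are the CaMKII genes Camk2a, Camk2b, Camk2d and Camk2g, the CaMKII inhibitor gene Camk2n1, Camk1, Camk1d and Camk4, and the upstream kinase genes Camkk1 and Camkk2. The 10 genes were chosen from the family with their air and hyperoxia values in these same libraries already known, so their differences are given as a description, without a test. All 10 were among the 17778 genes that passed the filter of a mean value of at least 10.

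C57BL/6 pups and their dams were kept in room air (air group, 3 libraries) or in a normobaric chamber at 85% oxygen (hyperoxia group, 3 libraries) from P2 to P14. RNA was taken from the left hippocampus at P14, with 1 library per animal. Each deposited column carries a group name and a number from 1 to 3, and the directions below rest on those group names alone. The sign of the RNA changes listed in the study itself runs the other way for the CaMKII and glutamate receptor genes. It does so also for other genes, among them the vesicular glutamate transporter gene Slc17a7. Which of the sources has the groups turned is not settled here. If the column names were exchanged, every direction below would turn, while the sizes of the log2 differences and the overlaps would stay. The values are normalized counts, which are reads per gene divided by 1 size factor per library.

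A rise in calcium loads calmodulin, and calcium-bound calmodulin opens the catalytic site of these kinases. CaMKII is built from subunits of 4 genes, with the alpha and beta subunits dominant in forebrain neurons, where the enzyme is known for its part in long-term potentiation and learning. In a separate cascade, the CaMKK enzymes phosphorylate CaMKI and CaMKIV, and CaMKIV acts largely in the nucleus on transcription factors such as CREB.

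By the column names, Camk2a, Camk2b and Camkk1 were lower in the hyperoxia libraries and Camk2d, Camk2g and Camk4 were higher, with no overlap of the groups for any of the 6. Camk2n1, Camk1, Camk1d and Camkk2 had overlapping groups. In the limma fit across all genes, 6 of the 10 genes passed an adjusted p of 0.05, 3 in each direction. Across all genes tested 30.5% passed, 14.9% higher and 15.6% lower in hyperoxia, and 46.1% had groups that did not overlap. The count of 6 became 5 under quantile normalization, where Camk2a did not pass. It became 7 without hyperoxia library 2 and also without hyperoxia library 3. Nothing is read from this count, because the genes were chosen with this contrast known. The median log2 difference of the 10 genes was 0.10, against -0.01 over all genes tested, and the median size of the difference regardless of sign was 0.40 against 0.25.

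**Figure D1:**
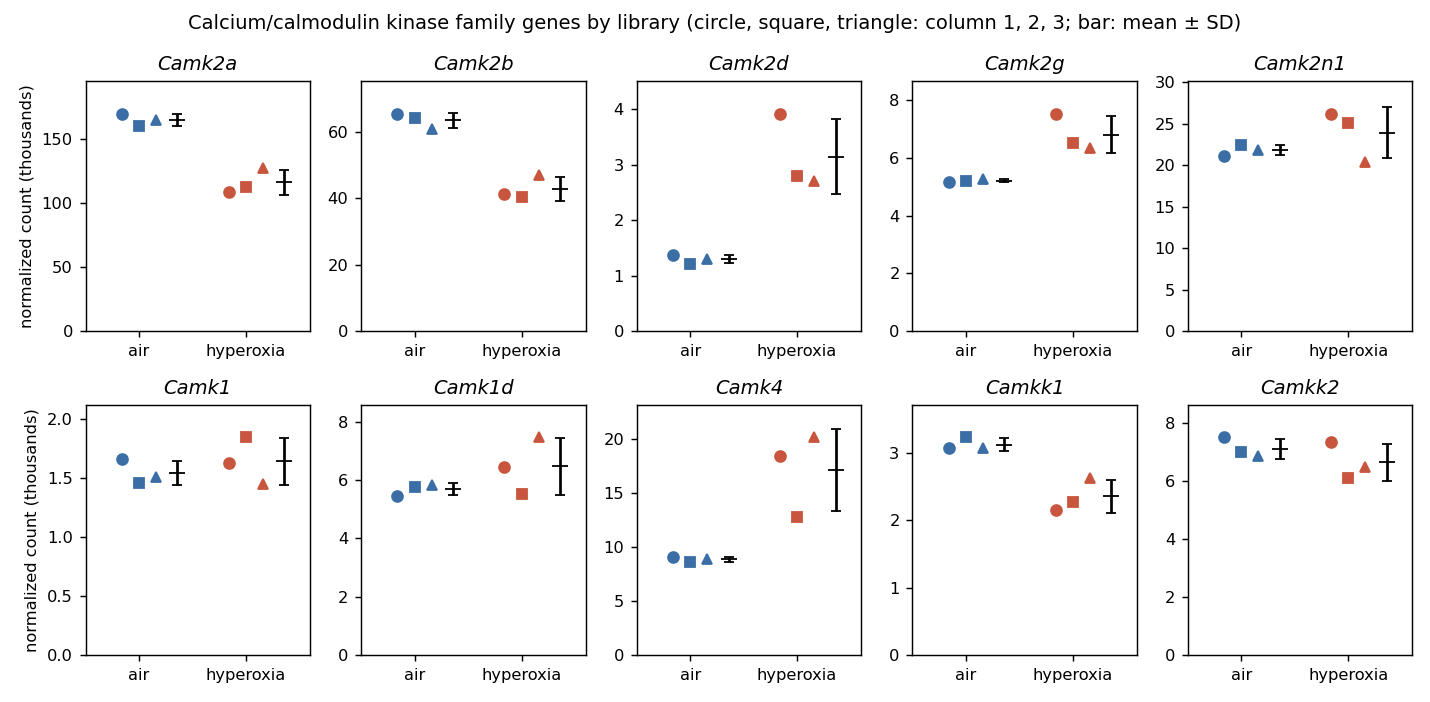
Normalized count divided by 1000 (vertical axes, each starting at 0) of the 10 kinase family genes in the 3 air (blue) and 3 hyperoxia (red) libraries, with the column number as the symbol and the mean ± SD as the bar. The hyperoxia points lie wholly below the air points for Camk2a, Camk2b and Camkk1, wholly above them for Camk2d, Camk2g and Camk4, and overlap them for the other 4 genes.

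The libraries held between 30384052 and 38746972 reads on genes, and between 1199 reads (Camk2d) and 180033 reads (Camk2a) lay behind each value of the 10 genes. The first principal component separated air from hyperoxia and carried 52.7% of the variance. Hyperoxia library 2 stood farthest out on the second, with 19.53%. In bulk tissue, fewer cells of a type and less RNA per cell cannot be told apart.

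Camk2a, on chromosome 18, encodes the alpha subunit of CaMKII, whose mRNA is abundant in excitatory neurons and is also carried into dendrites. Its normalized count was 169546, 159667 and 164491 in air libraries 1 to 3 and 108603, 112599 and 126837 in hyperoxia libraries 1 to 3. The hyperoxia values all lay under the lowest air value. The mean was 164568 ± 4939.7 in air and 116013 ± 9584 in hyperoxia (SD, n = 3 each), a change of -29.5% and a log2 difference of -0.51 with a standard error of 0.10. Ranked by normalized count among all genes, Camk2a stood at places 8 to 10 in air and 10 to 11 in hyperoxia. Under quantile normalization, which forces all libraries to 1 distribution, the log2 difference was -0.16.

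Positions here are on GRCm38 with the GENCODE M21 annotation. Camk2b (chr11:5969644-6066362, minus strand) encodes the beta subunit, which binds actin filaments in spines. The 3 air libraries had normalized counts of 65366, 63981 and 60899.5, and the 3 hyperoxia libraries had 41215.5, 40335 and 46942. The groups were apart by more than the range within either group. The log2 difference was -0.57 with a standard error of 0.09, a change of -32.5% in the mean, and it was -0.32 under quantile normalization. By rank of normalized count, Camk2b moved from places 28 to 30 in air to places 37 to 60 in hyperoxia.

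Camk2d (chr3:126596302-126846326, plus strand) encodes the delta subunit, best known from heart muscle and present in brain at lower levels. Its normalized count was 1371, 1220 and 1304 in air libraries 1 to 3. In hyperoxia libraries 1 to 3 it was 3925, 2802 and 2708. Every hyperoxia value was well above the air range, and library 1 stood above the other 2. The mean was 1298 ± 75.7 in air and 3145 ± 677 in hyperoxia (SD, n = 3 each), a ratio of 2.42 and a log2 difference of 1.26 with a standard error of 0.13. Without hyperoxia library 1 the log2 difference was 1.09.

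Camk2g (chr14:20734875-20794088, minus strand) encodes the gamma subunit, which in neurons carries calcium and calmodulin towards the nucleus. It had normalized counts of 5175, 5187 and 5259.5 in air libraries 1 to 3 and of 7532, 6501 and 6355 in hyperoxia libraries 1 to 3. The air libraries were close together, with an SD of 45.8 on a mean of 5207, and all hyperoxia libraries lay above them. The log2 difference was 0.38 with a standard error of 0.08, and the mean was 30.5% higher. Hyperoxia library 1 was again the highest, and without it the difference was 0.30.

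To set the letters of their start regions beside these opposite differences, the 250 bases before an annotated start of Camk2d and of Camk2b are printed here. They come from a RefSeq table of promoters on GRCm38.p6, which gave a match that could be printed for 6 of the 10 genes. The Camk2d stretch is chr3:126596701-126596950 on the plus strand and the Camk2b stretch is chr11:6065749-6065998 on the minus strand. Both end directly before an annotated transcript start and are written 5′ to 3′ along the gene. Other transcripts of each gene start farther upstream, so both stretches lie within the annotated gene, outside its exons. Capitals mark the GC box GGGCGG on either strand, a motif added to the search after the files had been seen.
Camk2d: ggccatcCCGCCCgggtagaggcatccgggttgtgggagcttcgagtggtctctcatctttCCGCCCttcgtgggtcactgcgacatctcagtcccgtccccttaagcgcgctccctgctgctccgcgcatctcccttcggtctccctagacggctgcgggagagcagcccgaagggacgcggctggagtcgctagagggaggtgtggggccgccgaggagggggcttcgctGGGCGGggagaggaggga
Camk2b: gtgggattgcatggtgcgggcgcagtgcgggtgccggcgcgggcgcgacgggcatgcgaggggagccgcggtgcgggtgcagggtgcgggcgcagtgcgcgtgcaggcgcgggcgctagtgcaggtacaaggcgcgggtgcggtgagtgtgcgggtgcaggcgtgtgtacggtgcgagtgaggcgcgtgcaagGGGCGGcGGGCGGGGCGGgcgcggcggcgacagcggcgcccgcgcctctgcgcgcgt

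Each stretch held 3 GC boxes, which in Camk2b were all on the gene's strand, with the last 2 sharing 1 base, and in Camk2d 1 was on the gene's strand and 2 on the opposite one. The GC content was 68.4% for Camk2d and 78.4% for Camk2b. The GC box was present in 32.7% of 32851 promoters of this length. Neither stretch held the cyclic AMP response element TGACGTCA (1.55% of promoters), its core TGACG (17.8%), the E-box CAGCTG (13%) or the EGR motif GCGTGGGCG (0.536%), searched on both strands. Among the other matched genes, TGACG stood once in the stretch of Camk1 and once in that of Camkk1. These are matches of letters and not binding sites.

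The Camk2 pool is the sum of the 4 CaMKII genes in a library. It was 234490 ± 6109 normalized counts in air and 168780 ± 12183 in hyperoxia (SD, n = 3 each), a change of -28.0%, without overlap. As a share of all normalized counts in a library, the pool went from 0.649% to 0.497%. Shares of each subunit gene within the pool do not depend on the size factor of a library, and here they were taken per kilobase (kb) of union exon length, the length of all annotated exons of the gene merged.

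Camk2a and Camk2b together made up most of the pool in every library. Per kb of union exon length, the Camk2a share was 73.8% ± 0.694 in air and 72.5% ± 1.05 in hyperoxia, and the Camk2b share was 23.3% ± 0.702 and 21.9% ± 0.412. The groups were narrowly apart for both, with the air and hyperoxia libraries nearest to each other at 73.09% and 73.08% for Camk2a. The ratio of Camk2a to Camk2b per kb was 3.17 ± 0.126 in air and 3.31 ± 0.0960 in hyperoxia, and these overlapped.

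The minor subunit genes held larger shares in the libraries named as hyperoxia, a direction that rests on the column names. Camk2g held 2.63%, 2.77% and 2.78% of the pool in air libraries 1 to 3 and 5.76%, 4.92% and 4.27% in hyperoxia libraries 1 to 3, a ratio of the mean shares of 1.83. Camk2d held 0.198%, 0.185% and 0.196% in air and 0.855%, 0.603% and 0.518% in hyperoxia, a ratio of 3.41. Neither pair of groups overlapped, and in hyperoxia both shares were highest in library 1 and lowest in library 3. The 2 genes together went from 2.92% ± 0.0789 to 5.64% ± 0.921 of the pool, and Camk2a and Camk2b held the rest.

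The size of the Camk2d share depends on the length used, because its annotated exons sum to 22493 bases while its longest transcript has 5524. Per kb of the longest transcript, Camk2d held 0.469% ± 0.0177 of the pool in air and 1.59% ± 0.415 in hyperoxia, a ratio of 3.39. With that length, the groups of Camk2a shares overlapped. The ratio of Camk2a to Camk2d per kb of union exon length was 382 ± 11.04 in air and 115 ± 29.3 in hyperoxia, and per kb of the longest transcript it was 141 ± 4.07 and 42.5 ± 10.8.

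**Figure D2:**
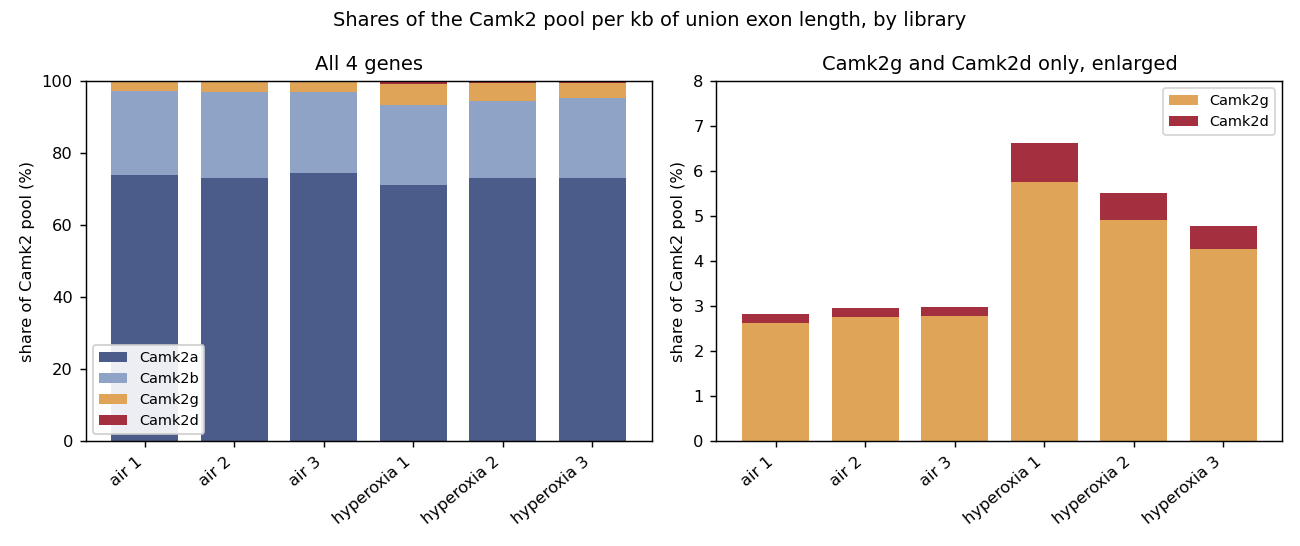
Share of the Camk2 pool in percent, per kb of union exon length, for each of the 6 libraries as stacked bars of Camk2a, Camk2b, Camk2g and Camk2d (left), and for Camk2g and Camk2d alone on an enlarged axis (right). Camk2g plus Camk2d reach between 2.83% and 2.97% in the air libraries and between 4.79% and 6.62% in the hyperoxia libraries.

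Camk2n1 (chr4:138454314-138460123, plus strand) encodes a small inhibitor protein that binds active CaMKII. Its normalized count was 21175, 22458 and 21875 in air libraries 1 to 3 and 26232, 25162 and 20413 in hyperoxia libraries 1 to 3. Hyperoxia libraries 1 and 2 were above all air libraries and library 3 was below them. The log2 difference was 0.12 with a standard error of 0.10. It was 0.23 without hyperoxia library 3. The pool was lower in hyperoxia, and the ratio of Camk2n1 to the pool per kb was 0.155, 0.173 and 0.166 in air and 0.289, 0.274 and 0.198 in hyperoxia, without overlap.

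Camkk1 (chr11:73019008-73042073, plus strand) and Camkk2 (chr5:122731170-122779409, minus strand) encode the kinases that activate CaMKI and CaMKIV, and CaMKK2 also activates AMPK. Camkk1 had normalized counts of 3074, 3231 and 3068 in air libraries 1 to 3 and of 2157, 2277 and 2626 in hyperoxia libraries 1 to 3. All hyperoxia libraries were lower, with a log2 difference of -0.41 and a standard error of 0.08. Camkk2 had normalized counts of 7489, 6979 and 6833 in air and of 7334, 6084 and 6478 in hyperoxia. Its groups overlapped, with a log2 difference of -0.10 and a standard error of 0.08, between -0.18 and -0.04 when each library was left out. The ratio of Camkk2 to Camkk1 per kb of union exon length was 0.776 ± 0.0492 in air and 0.972 ± 0.167 in hyperoxia, without overlap.

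Camk4, on chromosome 18, encodes CaMKIV, the nuclear kinase of the cascade. Its normalized count was 9083, 8598 and 8886 in air libraries 1 to 3 and 18366, 12798 and 20116 in hyperoxia libraries 1 to 3. Every hyperoxia library was above every air library, and library 2 was the nearest to them. The mean was 8855 ± 244 in air and 17093 ± 3821 in hyperoxia (SD, n = 3 each), a ratio of 1.93 and a log2 difference of 0.92 with a standard error of 0.14. The difference was 1.12 without hyperoxia library 2 and 0.79 without hyperoxia library 3. Camk4 shares 72 exon bases with 2310026I22Rik on the other strand, whose mean value was 2.74.

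Camk1 (chr6:113334124-113343984, minus strand) and Camk1d (chr2:5293457-5714515, minus strand) encode CaMKI alpha and delta, cytoplasmic kinases known for roles in neurite growth. Camk1 had normalized counts of 1660, 1457 and 1511 in air and of 1627, 1844 and 1450 in hyperoxia libraries 1 to 3, with a log2 difference of 0.08 and a standard error of 0.10. The groups overlapped, and the difference ranged from -0.00 to 0.17 when each library was left out. Camk1 shares 232 exon bases with Ogg1 on the other strand (mean value 168), and no source used here states whether counting used the strand. Camk1d had normalized counts of 5459, 5778 and 5837.5 in air and of 6432, 5517 and 7466 in hyperoxia. Its groups overlapped because hyperoxia library 2 lay inside the air range. The log2 difference was 0.17 with a standard error of 0.10, and it was 0.28 without hyperoxia library 2. It was -0.03 after correction of the libraries for transcript length and GC content.

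**Figure D3:**
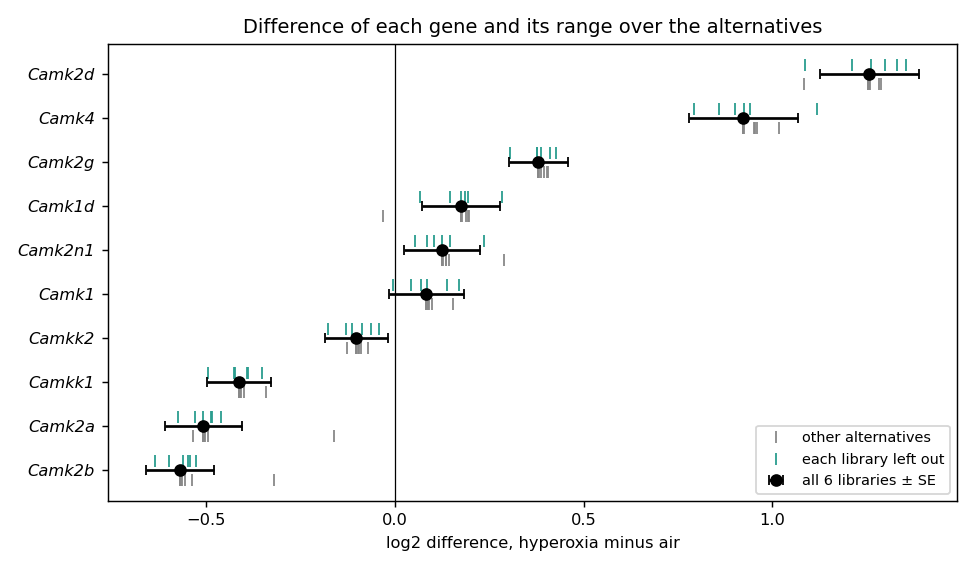
Log2 difference, hyperoxia minus air, of each kinase family gene (black point, with the standard error from limma as the bar), with the values when each library was left out (green ticks) and under the other alternatives (grey ticks). Camk2d at 1.26 and Camk4 at 0.92 lie farthest above 0 and Camk2b at -0.57 farthest below, and the grey tick apart from the others at -0.16 for Camk2a is quantile normalization.

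Levels of different genes were set in order per kb of union exon length. In air the order was Camk2a (22045 normalized counts per kb), Camk2b (6950), Camk2n1 (4914), Camk4 (2717), Camkk1 (838), Camk2g (813), Camk1d (766), Camkk2 (650), Camk1 (258) and Camk2d (57.7), with no overlap between neighbours. In hyperoxia Camk2a stayed first at 15541 and Camk2d last at 140, while Camk2n1 (5386), Camk4 (5245) and Camk2b (4694) overlapped in turn. Camk2g (1062) overlapped Camk1d (871), and Camkk1 (631) overlapped Camkk2 (607). Per kb of the longest transcript, Camk2b was second in hyperoxia without overlap, and in air Camkk2 (1461) stood after Camk4 and overlapped Camk2g (1406). The ratio of Camk4 to Camk2a per kb of union exon length was 0.123 in air and 0.337 in hyperoxia, with no overlap.

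Within the hyperoxia group the genes did not order the libraries alike. Camk2a, Camk2b and Camkk1, the lower genes, were highest in library 3. Camk2d and Camk2g were highest in library 1, and Camk4 was highest in library 3 and lowest in library 2.

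The genes whose pattern over the 6 libraries was most like that of Camk2a, by Pearson's r of log2 values among 6523 genes with a mean of at least 1000, were Neurod2, Msl1, Errfi1, Sertm1 and Cacna1h, with r of at least 0.997. Those most like Camk2d were Astn2, Ubfd1, Mapk9, Slc39a9 and Garnl3, with r between 0.996 and 0.999. Among these 10 genes the log2 difference reached -0.71 in Neurod2, a transcription factor of excitatory neurons, and 0.86 in Garnl3. With 3 libraries in each of 2 groups, such an r mostly reflects the difference between the groups.

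Calmodulin, the calcium sensor of all these kinases, is encoded as the same protein by several genes. Calm2 had normalized counts of 69232, 64320 and 61796 in air and of 43200, 42909 and 45208 in hyperoxia, and fell by 0.57 on the log2 scale (limma adjusted p = 0.00156). Calm3 went from 122926 ± 3324 to 88844 ± 5202 (SD, n = 3 each) and fell by 0.47 (limma adjusted p = 0.00524). Under quantile normalization Calm3 lost that call. No source used here states how reads shared by these genes and their processed copies were counted.

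Around the 10 genes, 84 genes in 6 lists of related kinases, calmodulin-binding proteins, phosphatases and substrates were followed, with the lists written when earlier results of these data were known, so that their counts are a description. Of the 84, 9 rose (10.7%) and 26 fell (31.0%) by limma, beside the 14.9% and 15.6% of all genes given above. Their median log2 difference was -0.05 and their median size of difference 0.26, close to the 0.25 of all genes. Without hyperoxia library 2 the number that rose was 18, and the number that fell was 17 without air library 1 and 17 without air library 2.

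The list of other CaM kinase family genes and the inhibitor Camk2n2 had 17 members. Of these, 2 rose, 5 fell and 10 passed in neither direction, with a median log2 difference of 0.00. The shares over all genes tested were 14.9% rising and 15.6% falling. Mylk3, a myosin light chain kinase gene at a low level here, fell by 1.71 on the log2 scale, from 57.6 ± 9.54 to 18.6 ± 9.29 normalized counts (limma adjusted p = 0.0102). Mylk, the smooth muscle myosin light chain kinase gene, fell by 0.77 (limma adjusted p = 0.00106). Cask, a synaptic scaffold with a CaM kinase-like domain, rose by 0.51, from 2543 ± 88.4 to 3637 ± 405 (limma adjusted p = 0.00300). Dclk1, a microtubule-binding kinase gene of developing neurons, rose by 0.40 (limma adjusted p = 0.0389), a call lost in 7 of 16 alternatives. With length and GC content removed, the Dclk1 difference was 0.16. Camk2n2, the second CaMKII inhibitor gene, had normalized counts of 2863, 2440 and 2643 in air and of 3167, 3870 and 2793 in hyperoxia, which overlapped, with a log2 difference of 0.30 (limma adjusted p = 0.0803). It passed in 3 of 16 alternatives, among them without hyperoxia library 3 at 0.41.

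Of the 10 calmodulin genes and calmodulin-binding buffers, 2 rose and 3 fell, with a median log2 difference of 0.10. Among all genes tested, 14.9% rose and 15.6% fell. Nrgn, which encodes neurogranin, a postsynaptic protein that holds calmodulin at low calcium, had normalized counts of 73976, 66822 and 66382 in air and of 35062, 41702 and 34949 in hyperoxia. That is a fall of 0.89 on the log2 scale (limma adjusted p = 5.43e-04), with the groups far apart. Gap43, the growth cone protein that binds calmodulin through a similar motif, rose by 0.59, from 6790 ± 592 to 10239 ± 1157 (limma adjusted p = 0.00271). Marcksl1, a calmodulin-binding substrate of protein kinase C, rose by 0.42 (limma adjusted p = 0.0121), a call lost without air library 3, at 0.39.

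Of 9 genes of calcineurin, the calmodulin-dependent phosphatase, and its regulators, 1 rose, 1 fell and 7 passed in neither direction. Ppp3ca, the main catalytic subunit gene in brain, fell by 0.66 on the log2 scale, from 95016 ± 5338 to 60235 ± 5987 (limma adjusted p = 0.00183), and Rcan3, a regulator, rose by 0.39 (limma adjusted p = 0.00584). Of 12 genes of other phosphatases acting on CaM kinases and their regulators, 5 fell and 0 rose by limma's adjusted p. Beside this, 14.9% of all genes tested rose and 15.6% fell. In the list, 0 were higher also at an unadjusted p under 0.05 and by edgeR and DESeq2 on the same libraries. The median log2 difference of the list was -0.07. Ppp1r9b, which encodes spinophilin, a protein that targets phosphatase to spines, fell by 0.57, from 59691 ± 1162 to 40393 ± 3285 (limma adjusted p = 0.00187). Ppp1ca, a catalytic subunit gene of protein phosphatase 1, fell by 0.45 (limma adjusted p = 0.00290).

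Of 19 synaptic partners and substrates of CaMKII, 8 fell, 11 passed in neither direction and the median log2 difference was -0.19. The number that rose was 0 by limma, edgeR and DESeq2, all on the same libraries, and 0 at an unadjusted p under 0.05 in limma. Over all genes tested, 14.9% rose and 15.6% fell by limma's adjusted p. Gria1, the AMPA receptor subunit whose channel CaMKII phosphorylates, had normalized counts of 43612, 43441 and 41791 in air and of 25614, 25326 and 33829 in hyperoxia, a fall of 0.62 on the log2 scale (limma adjusted p = 0.00413). Grin1, the obligatory NMDA receptor subunit, fell by 0.59, from 19925 ± 1275 to 13267 ± 400 (limma adjusted p = 9.80e-04). Both had groups without overlap, with hyperoxia library 3 standing apart towards air for Gria1. For these receptor genes too the direction rests on the column names. Grin2b, the NMDA receptor subunit to which CaMKII binds, had normalized counts of 15813, 14252 and 16553 in air and of 22140, 12734 and 25181 in hyperoxia. Hyperoxia library 2 was below all air libraries and the other 2 above them, with a log2 difference of 0.31 (limma adjusted p = 0.289) that was 0.61 and passed without hyperoxia library 2.

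Of 17 genes of nuclear factors and AMPK-related kinases around the CaMKK cascade, 4 rose, 4 fell and 9 passed in neither direction. Their median log2 difference was -0.01. Over all genes tested, 14.9% rose and 15.6% fell by limma's adjusted p. Mef2c, a transcription factor regulated by CaM kinases through histone deacetylases, had normalized counts of 4075, 3887 and 3810 in air and of 14434, 8230 and 6644 in hyperoxia, a rise of 1.24 on the log2 scale (limma adjusted p = 0.00392). It was highest in hyperoxia library 1, as Camk2d was. Sik1, a CREB-induced kinase gene, rose by 0.70 (limma adjusted p = 0.00178). Crtc2, a CREB coactivator, fell by 0.72, from 1339 ± 37.0 to 811 ± 26.5 (limma adjusted p = 4.03e-04). Stk11, which encodes the AMPK kinase LKB1, fell by 0.29 (limma adjusted p = 0.0291), a call lost in 6 of 16 alternatives.

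**Figure D4:**
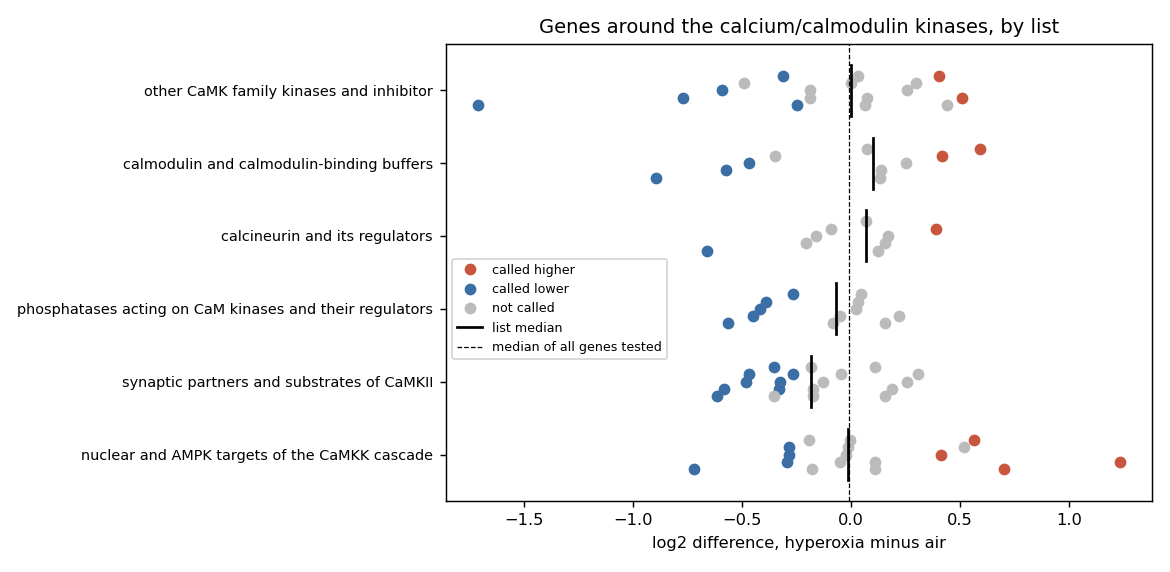
Log2 difference, hyperoxia minus air, of the 84 related genes in 6 lists, 1 point per gene, coloured by its call at a limma adjusted p of 0.05, with the median of each list (black bar) and of all genes tested (dashed line). The 2 lists of phosphatases acting on CaM kinases and of synaptic partners hold 5 and 8 lower calls and no higher call. Of all genes tested, 14.9% were called higher and 15.6% lower.

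Markers of cell types and hippocampal fields moved beside these genes. The summed normalized counts of 5 excitatory neuron markers were 85131, 82165 and 79191 in air and 63180, 59356 and 65834 in hyperoxia, a ratio of 0.764 without overlap. In that list 3 genes fell, which were Slc17a7, the vesicular glutamate transporter gene, and the transcription factor genes Neurod6 and Neurod2, and 1 rose. Of all genes tested, 15.6% fell and 14.9% rose by limma's adjusted p. The ratio of the summed counts was 0.692 for dentate granule cells, 0.790 for CA2 and CA3 pyramidal cells and 0.957 for CA1 pyramidal cells, the last with overlap. The dentate sum was 14044 in hyperoxia library 3 against 9411 and 9331 in libraries 1 and 2. Hyperoxia library 3 was also the nearest to air for Camk2a, Camk2b and Camkk1. Prox1 made up 54.6% of the dentate sum, and the other 3 markers gave a ratio of 0.61 without overlap. Within hyperoxia, Prox1, Dsp and Stxbp6 were highest in library 3 and C1ql2 in library 2.

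The ratio of the sums was 0.601 for 6 oligodendrocyte markers, 1.27 for 6 astrocyte markers and 1.22 for 4 oligodendrocyte precursor markers. It was 1.12 for 5 microglia markers and 1.34 for 5 endothelial markers. Each of these sums was without overlap, and 7 interneuron markers gave 0.967 with overlap. By limma, 2 of the 4 precursor markers and 3 of the 5 endothelial markers rose, beside 14.9% of all genes tested that rose and 15.6% that fell. Of the 5 microglia markers only Cx3cr1 rose, and Aif1 had a ratio of 0.76 with its groups apart. Of the astrocyte sum, 65.0% came from Slc1a2, a glutamate transporter gene, and the other 5 astrocyte markers gave a ratio of 1.04 with overlap. The sum of 5 thalamus markers gave 1.24 without overlap, but the genes were mixed. By limma 2 rose and 3 passed in neither direction. Only Rora had groups apart, and Prkcd had a ratio of 0.88 with overlap. Choroid plexus markers summed to 8115 in hyperoxia library 3 and to between 457 and 1409 in the other 5 libraries. Every marker was above 0 in every library.

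A list of 9 genes of neocortical layers, written after the files had been seen, summed to 10596, 9918 and 10394 in air and to 17492, 13683 and 13623 in hyperoxia. Of the 9 genes, 7 had every hyperoxia library above every air library and 0 had the reverse, and library 1 was the highest for the sum, as for Camk2d and Camk2g. The part of tissue composition, including cortex beside the hippocampus, in the differences of the kinase genes was not tested.

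**Figure D5:**
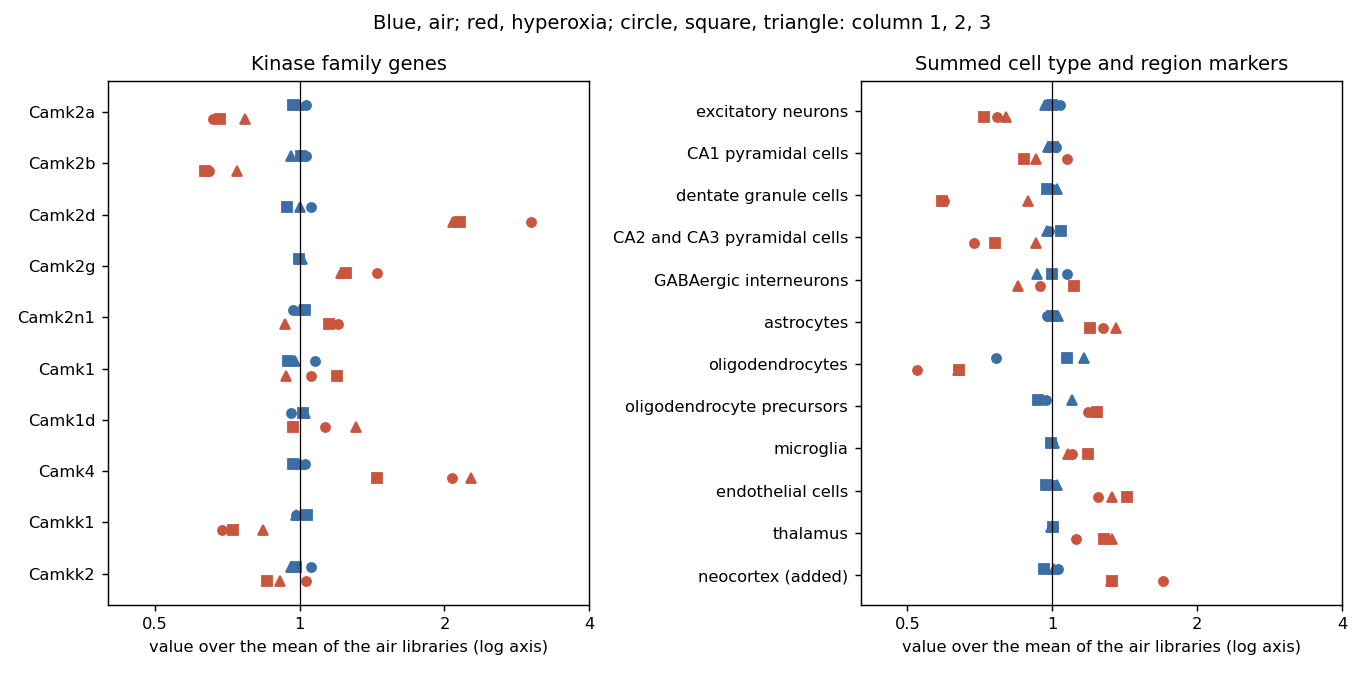
Value of each library divided by the mean of the air libraries, on a log axis, for the 10 kinase family genes (left) and for the summed markers of each cell type or region (right), with air in blue, hyperoxia in red and the column number as the symbol. Camk2d and the neocortex sum both have their highest point in hyperoxia library 1, and the choroid plexus sum, at 8115 in hyperoxia library 3, is not drawn.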

How the data were processed

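Gene expression was measured by sequencing of mRNA from the left hippocampus of 6 mice. The submitters' processing notes name FastQC, STAR 2.5.3a, HTSeq and DESeq2. No source used here gives the genome build, the annotation or the strand setting. The deposited signal is reads per gene after the authors' normalization, with 1 scaling factor for each library. A second deposited table holds the authors' own comparison (fold changes and p-values) and was not used.

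The 10 genes and all lists were chosen with earlier results of these data known. Dividing by the value of 1 read gave whole numbers for 100% of values (tolerance 0.01), and these recovered reads served the alternatives. Hyperoxia was compared with air on log2(value + 1) by limma 3.58.1 under R 4.3.3, using its mean-variance trend. The 17778 genes whose mean reached 10 were tested and Benjamini-Hochberg adjusted p was called at 0.05. Such differences understate the change of low genes. It called 5425 genes. On recovered reads, edgeR 4.0.16 (quasi-likelihood) called 5501 and DESeq2 1.42.0 called 5611. The pseudocount (0.5 or 5), the filter (none, or a mean of 50), the scaling (TMM or quantile) and the trend (none) were also varied, with a length and GC correction (mgcv 1.9.3) and each library left out in turn. No 2 libraries agreed within sampling noise.

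Exon lengths, positions and overlaps came from GENCODE M21 on GRCm38, where 99.7% of identifiers were found. Beyond the 10 genes, the text names in each pathway list up to 2 rises and 2 falls of largest size among called genes without overlap, plus Calm2, Calm3, Camk2n2, Ppp3ca and Grin2b, and the 5 genes most like Camk2a and Camk2d. Some genes are not reported here. Figures were drawn with matplotlib 3.10.9.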

Additional observations from a re-analysis of the deposited data

How the results depend on the processing

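Under quantile normalization the log2 difference was -0.16 for Camk2a, -0.32 for Camk2b and 0.29 for Camk2n1. With the length and GC trend removed, it was -0.031 for Camk1d. The hyperoxia minus air difference of the Camk2d pool share was 0.466 percentage points per kb of union exon length, 1.33 without division by length and 1.12 per kb of the longest transcript. When each library was left out in turn, between 3048 and 7756 genes were called over the whole table, between 7 and 18 of the 84 related genes rose and between 17 and 32 fell. The fits with a library left out also had fewer libraries, and the cause of these changes was not tested.

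No paired analysis was possible because the labels number the animals without sharing a number between groups, and the column numbers are tied to no animal. With 3 libraries a group, an exact permutation test cannot go below p = 0.1, so none was used for single values. Whether the 3 libraries of a group came from separate litters is not given, and p-values measure the spread between these libraries. The values count RNA of a gene and not protein, kinase activity or splice forms.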
